A study of Mus musculus with 8 samples.

Results

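The 10 regulators of G protein signalling are described here in the striatum of old mice: Rgs2, Rgs4, Rgs7, Rgs8, Rgs9, Rgs10, Rgs12, Rgs14, Rgs19 and Rgs20. All probe sets assigned to exactly 1 gene with one of these symbols were taken, which gave 22 probe sets for 10 genes, out of 45037 probe sets and 18193 genes measured. The 10 genes were chosen with their measured values in this same comparison already known, so their change between the genotypes is described here and not tested. The first group was 4 CHL2 mice, which model Huntington's disease: both copies of their Htt gene carry a knock-in of 150 CAG repeats taken from the human disease gene. Htt keeps its own promoter, so the expanded gene is not limited to one cell type. The second group was 4 wild-type mice. All 8 mice were C57BL/6 X CBA F1 hybrids aged 22 months, and no treatment is given for either group. CHL2 mice 141, 153 and 154 were female and 191 was male, and wild-type mouse 161 was female and 170, 180 and 200 were male. Total striatal RNA of each mouse was hybridised to 1 Affymetrix whole-genome expression array. The comparison asks which transcripts of the striatum differ in aged mice with the expanded repeat, and the number of arrays, 4 per group, limits its precision.

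An RGS protein speeds the hydrolysis of GTP on an activated G protein alpha subunit and so ends the signal of the receptor that activated it. The striatum is rich in receptors that act through Gi/o and Gq, among them the D2 dopamine, cannabinoid and muscarinic receptors, and in RGS proteins that act on them. The family falls into classes: the small R4 proteins (here Rgs2, Rgs4 and Rgs8), the R7 proteins, which need the beta subunit Gnb5 and a membrane anchor (Rgs7 and Rgs9), the R12 class (Rgs10, Rgs12 and Rgs14, of which the last 2 also hold a GoLoco motif that binds inactive G alpha i), and the RZ class (Rgs19 and Rgs20).

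Promoter sequence is shown for Rgs2, Rgs4 and Rgs9, whose level was lower in CHL2 mice and of which the first 2 hold the half-site of the cAMP response element, and for Rgs19, whose level was higher. Each is the 250 bases before the annotated start site, from RefSeq on GRCm38.p6, printed 5' to 3' along the gene, and all 4 lie on the minus strand. For Rgs19, which has several annotated starts, the most upstream start is shown. The Rgs2 window lies at chr1:144004150-144004399, the Rgs4 window at chr1:169747643-169747892, the Rgs9 window at chr11:109298182-109298431 and the Rgs19 window at chr2:181693978-181694227. Capitals mark every match, on either strand, to the motifs searched.
Rgs2: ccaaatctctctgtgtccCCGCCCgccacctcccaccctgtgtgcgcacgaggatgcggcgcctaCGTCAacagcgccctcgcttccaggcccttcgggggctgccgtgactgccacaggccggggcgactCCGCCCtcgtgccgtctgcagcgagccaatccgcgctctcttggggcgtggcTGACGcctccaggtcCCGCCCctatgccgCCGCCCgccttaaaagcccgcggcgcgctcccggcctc
Rgs4: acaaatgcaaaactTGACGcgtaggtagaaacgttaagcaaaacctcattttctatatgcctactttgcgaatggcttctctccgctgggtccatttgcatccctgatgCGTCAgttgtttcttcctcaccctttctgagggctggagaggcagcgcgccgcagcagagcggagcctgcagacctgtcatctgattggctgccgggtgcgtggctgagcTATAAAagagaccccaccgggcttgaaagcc
Rgs9: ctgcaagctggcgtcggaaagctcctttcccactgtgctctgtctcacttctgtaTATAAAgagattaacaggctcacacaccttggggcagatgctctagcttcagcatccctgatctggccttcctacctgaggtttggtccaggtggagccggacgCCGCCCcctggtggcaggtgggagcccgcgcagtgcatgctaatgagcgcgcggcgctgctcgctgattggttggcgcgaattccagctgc
Rgs19: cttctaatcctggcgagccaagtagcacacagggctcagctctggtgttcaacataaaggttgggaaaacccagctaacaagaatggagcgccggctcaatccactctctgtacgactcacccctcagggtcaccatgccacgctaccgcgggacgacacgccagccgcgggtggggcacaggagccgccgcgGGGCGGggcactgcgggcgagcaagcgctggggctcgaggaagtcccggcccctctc

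The motifs searched were the full cAMP response element TGACGTCA, its half-site TGACG (which lies inside the full element), the E-box CACGTG, the GC box GGGCGG and the TATA box TATAAA, each on both strands. Of the 10 genes, 8 had a window in the RefSeq table used here, 13 windows in all, and Rgs14 and Rgs20 were not analysed here. The full element was found in 0 of the 8 genes, against 1.55% of 32851 mouse promoter windows of the same length. The half-site was found in 4 of the 8 (Rgs2, Rgs4, Rgs8 and Rgs12), against 17.8% of windows. By the threshold given below, Rgs2, Rgs4 and Rgs12 were lower in CHL2 mice and Rgs8 did not pass. Among the genes without the half-site, Rgs9 and Rgs10 were lower, Rgs19 was higher and Rgs7 did not pass. The GC box was found in 5 of the 8 genes, against 32.7% of windows, the TATA box in 2 (12.4%) and the E-box in 1, Rgs7 (6.02%). Rgs4 had its TATA box 31 bases before the start site, and Rgs2 had 4 GC boxes within its window. Genes with several windows had more chances of a match than 1 window has, and a match to letters is a description of the window.

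Values below are log2 RMA signals, 1 per mouse, given in the order of mice 141, 153, 154 and 191 for CHL2 and 161, 170, 180 and 200 for wild type. The level of a gene is that of its brightest probe set, and a difference of 1 on this scale is a doubling. Changes are CHL2 minus wild type, adjusted for recorded sex, with the standard error (SE) of limma's fit. A change was said to have passed at an adjusted p under 0.05 over all 18193 genes. Of the 10 Rgs genes, 7 passed as lower in CHL2 mice (Rgs2, Rgs4, Rgs9, Rgs10, Rgs12, Rgs14 and Rgs20), 1 passed as higher (Rgs19) and 2 did not pass (Rgs7 and Rgs8). Over all genes measured, 6.01% were lower and 6.4% higher. Since this contrast was known when the genes were chosen, nothing is read from that difference in share. Fewer passed as lower without wild-type mouse 161 or without CHL2 mouse 191. Each of these sex-adjusted fits compares the genotypes within 1 sex, with 1 mouse on one side. The plot of levels by mouse shows every value behind these counts.

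**Figure D1:**
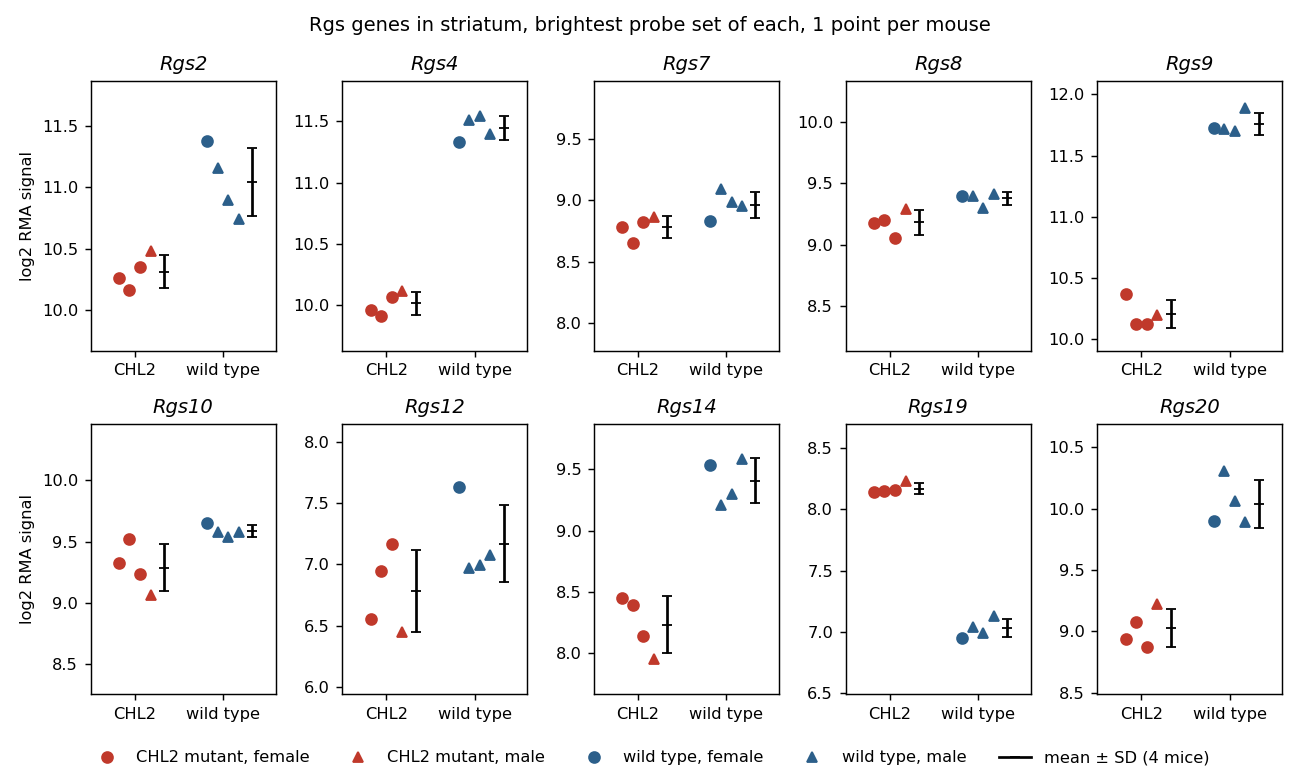
Levels of the 10 Rgs genes (log2 RMA signal of the brightest probe set, vertical axis, 1 panel per gene, all panels with the same span) in 4 CHL2 and 4 wild-type mice. Points are single mice, circles female and triangles male, and bars are mean ± SD. The groups are apart in 8 panels and overlap for Rgs7 and Rgs12, and Rgs19 alone is higher in CHL2 mice.

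Among the R4 genes, Rgs4, which acts on both Gi/o and Gq alpha subunits, had 9.96, 9.91, 10.06 and 10.12 in CHL2 mice, against 11.33, 11.51, 11.54 and 11.40 in wild-type mice. Every CHL2 value lay below every wild-type value, far beyond the spread within either group. The means were 10.01 ± 0.09 in CHL2 and 11.45 ± 0.10 in wild-type mice (SD, n = 4 each), a change of -1.36 (SE 0.08), or a level 2.56-fold lower in CHL2 mice. Its other 2 probe sets gave -1.29 and -1.25. The dimmer of them had 6.06, 6.34, 6.74 and 6.78 in CHL2 mice, against 8.02, 6.32, 8.41 and 8.20 in wild-type mice. Only wild-type mouse 170 overlapped the CHL2 mice there, and this probe set did not pass among all probe sets. The array of mouse 170 also stood apart in RNA quality: its 3' minus 5' difference was 1.37 for the Gapdh control probe sets, against 0.32 to 0.43 on the other 7 arrays, and 2.65 for beta-actin, against 1.23 to 1.51. The part of RNA quality in the Rgs4 values was not tested. Without mouse 170, 7 of the 10 Rgs genes passed as lower and 1 as higher.

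Rgs2, which prefers Gq among the alpha subunits, had 10.26, 10.16, 10.35 and 10.48 in CHL2 mice, against 11.38, 11.16, 10.90 and 10.74 in wild-type mice. The groups did not overlap, but wild-type values were spread over a wider range, with the female mouse 161 the highest. The means were 10.31 ± 0.14 in CHL2 and 11.04 ± 0.28 in wild-type mice (SD, n = 4 each), and the change was -0.79 (SE 0.15), 1.72-fold lower in CHL2 mice. Its 2 other bright probe sets gave -0.97 and -0.72, both with groups apart. The fourth lay between 4.56 and 5.00 in all 8 mice and gave 0.00. The change was -1.12 between females and -0.45 between males, and each of these rests on 1 mouse on one side. Without mouse 161 the sex-adjusted change was that between males, -0.45, and did not pass.

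Rgs8, an R4 protein best known from cerebellar Purkinje cells, had 9.17, 9.20, 9.05 and 9.29 in CHL2 mice, against 9.40, 9.39, 9.30 and 9.42 in wild-type mice. The groups were only just apart, at CHL2 mouse 191 and wild-type mouse 180. The change was -0.17 (SE 0.09, 95% interval -0.36 to 0.03) and did not pass.

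Of the R7 genes, Rgs9, whose long splice form is enriched in striatal neurons and limits D2 dopamine and mu opioid receptor signals, had the largest change of the 10. Its level was 10.37, 10.13, 10.13 and 10.20 in CHL2 mice, against 11.73, 11.71, 11.70 and 11.89 in wild-type mice. The groups were far apart, with means of 10.21 ± 0.12 in CHL2 and 11.76 ± 0.09 in wild-type mice (SD, n = 4 each). The change was -1.54 (SE 0.10), 2.91-fold lower in CHL2 mice. A second probe set gave a change of -2.23 (SE 0.15), with 6.84, 6.35, 6.89 and 6.76 in CHL2 mice, against 8.88, 8.91, 8.97 and 9.20 in wild-type mice. The third lay between 3.76 and 3.89 in all 8 mice. Which splice forms these probe sets read was not analysed here.

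Rgs7, an R7 protein found widely in brain, had 8.79, 8.65, 8.83 and 8.87 in CHL2 mice, against 8.84, 9.09, 8.98 and 8.95 in wild-type mice. The groups overlapped through wild-type mouse 161, and the change of -0.11 (SE 0.08, 95% interval -0.30 to 0.08) did not pass.

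In the R12 class, Rgs14, a scaffold with an RGS domain, Ras-binding domains and a GoLoco motif, had 8.45, 8.39, 8.14 and 7.95 in CHL2 mice, against 9.54, 9.21, 9.30 and 9.59 in wild-type mice. The groups did not overlap. The means were 8.23 ± 0.23 in CHL2 and 9.41 ± 0.18 in wild-type mice (SD, n = 4 each), a change of -1.31 (SE 0.12) or 2.49-fold lower in CHL2 mice. Rgs14 has 1 probe set on the array, so no second reading stands beside it.

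Rgs10, a short protein of this class found in neurons and microglia, had 9.33, 9.52, 9.24 and 9.06 in CHL2 mice, against 9.65, 9.58, 9.54 and 9.58 in wild-type mice. CHL2 mouse 153 lay just below the wild-type range. The change was -0.40 (SE 0.10), 1.32-fold lower in CHL2 mice. It did not pass in 7 of the 20 other settings tried: it was -0.30 without sex in the fit and -0.29 without CHL2 mouse 191.

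Rgs12, a large scaffold with PDZ, phosphotyrosine-binding and GoLoco domains, had 6.56, 6.95, 7.16 and 6.45 in CHL2 mice, against 7.63, 6.97, 7.0 and 7.08 in wild-type mice. The groups overlapped, since CHL2 mouse 154 exceeded 3 of the wild-type mice. The means were 6.78 ± 0.33 in CHL2 and 7.17 ± 0.31 in wild-type mice (SD, n = 4 each). The sex-adjusted change of -0.65 (SE 0.14) is larger than the difference of these means, and without sex in the fit it was -0.39 and did not pass. With sex in the fit it was -0.56 without mouse 161 and -0.75 without mouse 191, about as large, but did not pass with either left out. Each of these fits has 1 mouse on one side of the contrast. Its other 2 probe sets stayed under 5 in all 8 mice. Rgs12 lies on chromosome 5 with 1 coding gene, Msantd1, between it and Htt, so an effect of the knock-in and a difference in DNA linked to Htt cannot be told apart for this gene.

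Of the RZ genes, Rgs19, also known as GAIP, was the single Rgs gene higher in CHL2 mice. Its level was 8.14, 8.15, 8.15 and 8.23 in CHL2 mice, against 6.95, 7.04, 6.99 and 7.13 in wild-type mice. The values were tight in both groups and more than 1 log2 unit apart. The means were 8.17 ± 0.04 in CHL2 and 7.03 ± 0.07 in wild-type mice (SD, n = 4 each), a change of 1.19 (SE 0.08) or 2.28-fold higher in CHL2 mice. The second probe set gave 1.09 (SE 0.17), with 6.10, 6.01, 6.01 and 6.10 in CHL2 mice, against 5.12, 5.26, 4.73 and 4.53 in wild-type mice. By its Affymetrix suffix this second probe set holds probes that may also bind other transcripts, and 2 of its wild-type values lay under 5.

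Rgs20, which acts on G alpha z, had 8.94, 9.07, 8.87 and 9.22 in CHL2 mice, against 9.90, 10.31, 10.07 and 9.89 in wild-type mice. The groups were apart, with a change of -0.90 (SE 0.11), 1.87-fold lower in CHL2 mice. Its second probe set gave -0.66 with groups apart, and the third stayed under 5 in all 8 mice and gave 0.05. The 2 RZ genes stood on opposite sides of 0 in the same mice.

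The plot of all probe sets shows how the readings of a gene compare. Of 22 probe sets, 12 passed as lower, 2 as higher and 8 did not pass when all 45037 probe sets were tested, where 3.44% of probe sets were lower and 3.26% higher. The 8 included 4 with all 8 values under 5, the log2 of a signal of 32 used here as a floor, and 1 more that reached 5 in a single mouse. At gene level, all CHL2 values lay below all wild-type values for 7 of the 10 genes, against 9.27% of all genes, and above them for 1, against 11.4% of all genes. The median change of the 10 genes was -0.72, beside 0.01 for all genes tested, of which the 5th to 95th percentile ran from -0.43 to 0.40.

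**Figure D2:**
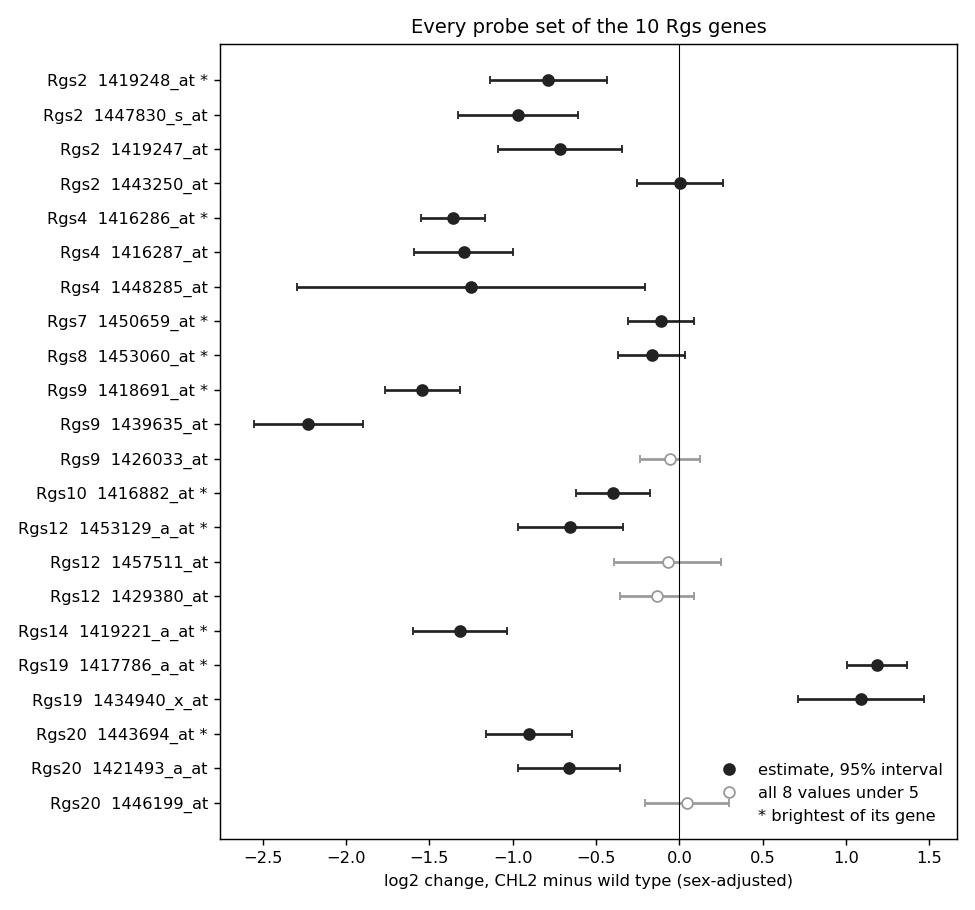
Sex-adjusted log2 change, CHL2 minus wild type (horizontal axis), of each of the 22 probe sets of the 10 Rgs genes. Points are limma estimates from 8 mice and bars their 95% intervals. Bright probe sets of 1 gene lie on the same side of 0, and the probe sets near 0 of Rgs2, Rgs9, Rgs12 and Rgs20 are dim.

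Sex was examined because the groups were unbalanced in it and the genes were not chosen on it. Of all genes, 5 (0.0275%) passed for sex and 1 (0.0055%) for a genotype by sex interaction in limma, and 1932 and 917 had an unadjusted p under 0.05. None of the 10 Rgs genes passed in either, and their lowest adjusted p values were 0.292 for sex and 0.969 for the interaction. For sex, 2 had an unadjusted p under 0.05: Rgs12, at -0.53 for males minus females (adjusted p = 0.292, limma), and Rgs14, at -0.27 (adjusted p = 0.463, limma). For the interaction Rgs2 had one, with a change 0.67 (SE 0.23) less negative in males than in females (adjusted p = 0.969, limma). Since 1 CHL2 mouse was male and 1 wild-type mouse female, these tests have little precision. Mice 161 and 191 also carry the most weight in every sex-adjusted change, as the plot with single mice left out shows. Without mouse 161 all wild-type mice were male, so the sex-adjusted change was mouse 191 against the wild-type males. Without mouse 191 it was the female CHL2 mice against mouse 161. A call lost in either fit therefore does not show that the mouse left out was unusual.

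**Figure D3:**
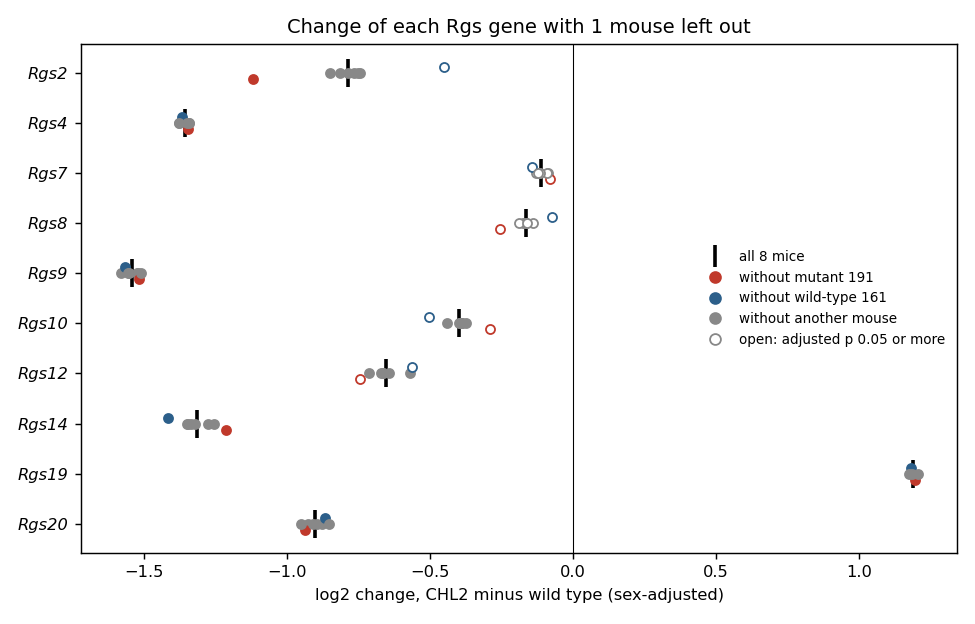
Sex-adjusted log2 change, CHL2 minus wild type (horizontal axis), of each Rgs gene in all 8 mice (bar) and with 1 mouse left out (points). Open points did not pass at an adjusted p under 0.05. Rgs4, Rgs9, Rgs14, Rgs19 and Rgs20 keep nearly the same change, whereas Rgs2 runs from -1.12 without mouse 191 to -0.45 without mouse 161. Points without mouse 161 or 191 compare the genotypes within 1 sex, with 1 mouse on one side.

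Of 11 other Rgs genes, 9 were measured, and 1 of them passed: Rgs11, another R7 protein. It had 6.82, 6.70, 6.71 and 6.36 in CHL2 mice, against 7.94, 7.42, 7.78 and 8.0 in wild-type mice. The groups did not overlap, and Rgs11 fell by 1.28 on the log2 scale (SE 0.13, limma adjusted p = 0.000223). The remaining 8 did not pass, and 0 of the 9 passed as higher. By sign, 5 of the 9 lay below 0. They include Rgs5, a marker of mural cells, at -0.15 (adjusted p = 0.436, limma), and Rgs17, an RZ protein, at -0.20 (adjusted p = 0.133, limma). The median of the 9 was -0.03.

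The genes that RGS proteins work with were read from 6 lists, 37 of whose 41 genes were measured. Of the 37, 11 passed as lower and 2 as higher in CHL2 mice, with a median change of -0.11. Over all genes measured, 6.01% were lower and 6.4% higher. The lists were drawn up with results of these data known, so nothing is read from that difference in share, here or within a list. The plot of the lists sets them beside the Rgs genes.

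**Figure D4:**
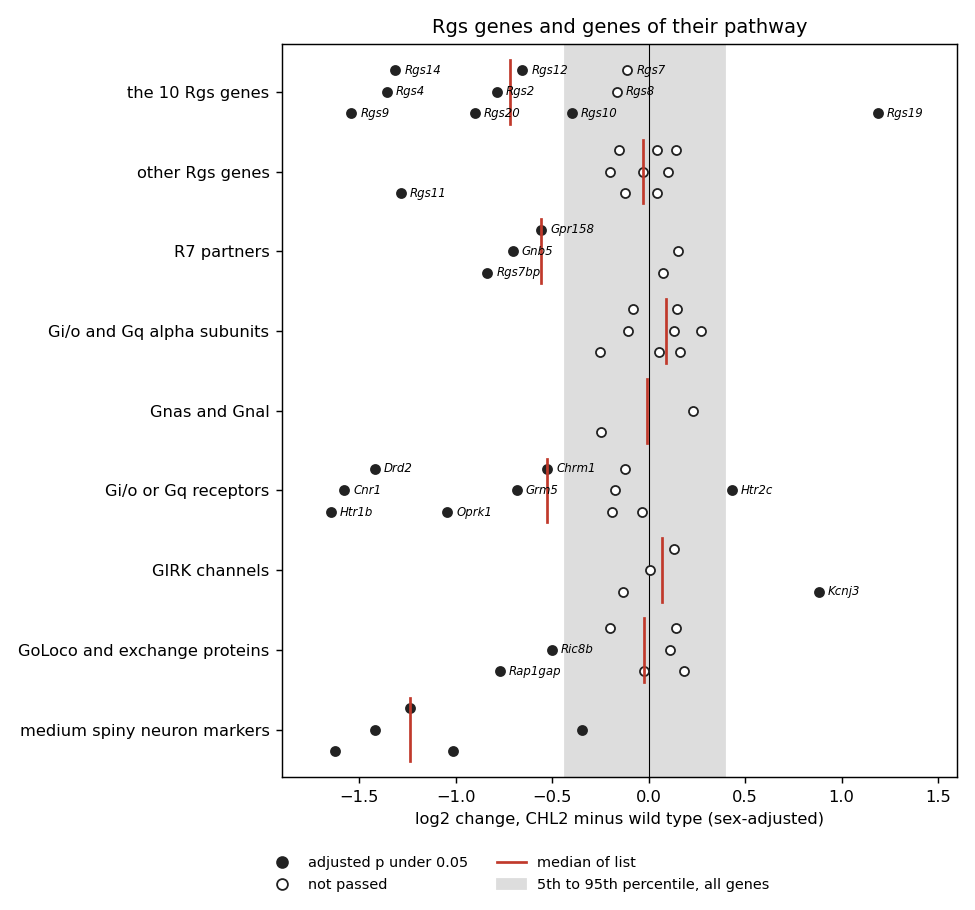
Sex-adjusted log2 change, CHL2 minus wild type (horizontal axis), of the 10 Rgs genes, 9 other Rgs genes, 6 lists of G protein pathway genes and 5 medium spiny neuron markers (rows). Each point is a gene, filled where limma's adjusted p over 18193 genes was under 0.05, and red lines are medians. Receptors and R7 partners lie towards lower levels in CHL2 mice, and the alpha subunits lie within the grey range of most genes.

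Among 5 partners of the R7 proteins, 3 passed as lower and 0 as higher. Rgs7bp, the palmitoylated anchor that holds R7 proteins at the membrane, averaged 10.52 ± 0.07 in CHL2 and 11.35 ± 0.08 in wild-type mice (SD, n = 4 each), a fall of 0.84 on the log2 scale (SE 0.09, limma adjusted p = 0.000224). Gnb5, the beta subunit that R7 proteins need for stability, averaged 9.79 ± 0.14 in CHL2 and 10.58 ± 0.09 in wild-type mice, and fell by 0.70 (limma adjusted p = 0.000595). Gpr158, an orphan receptor that recruits Rgs7, fell by 0.56 (limma adjusted p = 0.0248), a call lost without mouse 191, without mouse 161 and with a floor at 5, although the change stayed between -0.61 and -0.48 with 1 mouse left out. Rgs9, Rgs11, their anchor and their beta subunit were lower in the same CHL2 mice, while Rgs7 did not pass. Rgs6, an R7 protein outside the rule for naming genes, lay under 5 in all 8 mice. It stood at 0.04 and did not pass (adjusted p = 0.817, limma). When every probe set was tested, another Rgs7bp probe set passed at -0.80. A dimmer one, at -0.63 with groups apart, did not (adjusted p = 0.073, limma). Gpr179 and Rgs9bp, both known from the retina, did not pass and were dim.

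None of the 8 alpha subunits that RGS proteins act on passed by its brightest probe set. Gnao1, the main Gi/o subunit of brain, changed by -0.25 (adjusted p = 0.112, limma) and Gnai1 by 0.13 (adjusted p = 0.35, limma). Gnaq, named after its values were seen, stood at 0.27 with every CHL2 value above every wild-type value (adjusted p = 0.0518, limma). Another Gnaq probe set passed when every probe set was tested, at 0.46 with the groups apart (adjusted p = 0.017, limma). All CHL2 values also lay above all wild-type values for Gnai1 and for Gnaz, as they did for 11.4% of all genes. Gnaz stood at 0.16 and, like Gnaq, was named after its values were seen. In their other probe sets the groups overlapped, at 0.30 and 0.26 for Gnai1 and 0.04 for Gnaz. Of the alpha subunits that activate adenylyl cyclase, Gnas stood at 0.23 and Gnal, the form that couples D1 receptors in striatum, at -0.25 (adjusted p = 0.167 and 0.173, limma), and neither passed. Without sex in the fit, Gnas stood at 0.34 and Gnal at -0.41 and both passed (adjusted p = 0.0417 and 0.0445, limma). They also passed in the other 3 settings that left out sex together with mouse 161, 191 or both. With both mice left out, all CHL2 mice were female and all wild-type mice male, so genotype and sex cannot be told apart there.

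Of 11 measured receptors that signal through Gi/o or Gq, 6 passed as lower and 1 as higher. Htr1b, a serotonin receptor, fell by 1.65 on the log2 scale, Cnr1, the cannabinoid receptor, fell by 1.58, and Drd2, the D2 dopamine receptor, fell by 1.42. Cnr1 averaged 9.43 ± 0.19 in CHL2 and 11.16 ± 0.22 in wild-type mice, and Drd2 8.91 ± 0.15 in CHL2 and 10.32 ± 0.03 in wild-type mice (SD, n = 4 each). Oprk1, the kappa opioid receptor, fell by 1.04, Grm5, a Gq-coupled glutamate receptor, by 0.69 and Chrm1, a Gq-coupled muscarinic receptor, by 0.53, the last with an adjusted p = 0.0109 in limma. That call was lost without mouse 191, where the change was -0.34, with a floor at 5 and with probe sets averaged. The limma adjusted p of the other 5 was at most 0.00083. Htr2c, a Gq-coupled serotonin receptor, rose by 0.43 (limma adjusted p = 0.0485), a call lost in 11 of 20 other settings. The 4 that did not pass, Oprm1 and Oprd1 among them, had all 8 values under 5.

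Of 4 GIRK potassium channel genes, which G beta gamma opens, Kcnj3 rose by 0.88 (SE 0.24, limma adjusted p = 0.0387). It had 6.42, 6.86, 7.30 and 7.60 in CHL2 mice, against 6.51, 6.12, 6.15 and 6.28 in wild-type mice. The groups overlapped through CHL2 mouse 141 and wild-type mouse 161, and the call was lost in 11 of 20 other settings. The change rested on single mice: it was 0.35 without mouse 191 and 1.42 without mouse 161. These are the change between females and that between males, each with 1 mouse on one side. Kcnj9 stood at 0.13 and did not pass. Of 7 GoLoco and nucleotide exchange genes, Rap1gap, which inactivates Rap1 and whose long form binds G alpha i, fell by 0.77 (limma adjusted p = 0.00109). Ric8b, a chaperone and exchange factor for Gnal and Gnas, fell by 0.50 (limma adjusted p = 0.00858), a call lost without mouse 161. The other 5 did not pass, Gpsm1 at -0.20 and Ric8a at 0.18 among them.

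For Rgs4 and Rgs9 the genes with the most similar pattern over the 8 arrays are given as a description. All arrays are shared and the genotypes lie apart, so any gene with a like change scores high, and no p is given. The 5 nearest to Rgs4 were Myo18a, Abi3bp, Nin, Cnr1 and Strn, with Pearson r from 0.997 to 0.995. The 5 nearest to Rgs9 were Arpp21, Kcnip2, Camkv, Drd2 and Adcy5, the main adenylyl cyclase of striatum, with r from 0.997 to 0.996.

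The labelled tissue was checked against cell markers, in lists drawn up with results of these data known. Over all genes measured, 6.01% passed as lower and 6.4% as higher, and nothing is read from the marker counts beside these shares. Drd2 is also among the receptors above. All 5 measured markers of medium spiny neurons, the main striatal neurons and a source of Rgs9 and Rgs4, were bright, and all 5 fell, with a median change of -1.24 (Penk -1.63, Drd2 -1.42, Drd1 -1.24, Ppp1r1b -1.01 and Tac1 -0.34, limma adjusted p at most 0.0294). Their mean deviation from the 8-mouse mean was -0.71 to -0.49 in CHL2 and 0.52 to 0.65 in wild-type mice. In bulk tissue fewer cells of a type and less RNA per cell cannot be told apart. Of 32 markers of other cell types, 0 passed as lower and 1 as higher, Gfap of astrocytes (0.48, limma adjusted p = 0.0341). Its groups overlapped, at 9.18 in CHL2 mouse 191 and 9.22 in wild-type mouse 161. The other 4 astrocyte markers did not pass. By sign, 20 of the 32 lay below 0, with a median change of -0.10. None of 7 microglial markers passed. Nor did any of 5 endothelial and mural cell markers, but 4 of them lay below 0 with a median change of -0.26, and their mean deviation was -0.22 to -0.04 in CHL2 and 0.04 to 0.20 in wild-type mice, with the groups apart. None of the 4 measured cortical neuron markers passed, but all 4 lay below 0, with a median sex-adjusted change of -0.64. Their mean deviation was -0.97 in mouse 191 to 0.85 in mouse 154 among CHL2 mice, and -0.28 to 0.68 (mouse 161) among wild-type mice. CHL2 mouse 191 was also lowest, and wild-type mouse 161 highest, for Rgs10 and Rgs12. Choroid plexus markers ran from -0.83 to 1.42 in CHL2 and -0.64 to 0.81 in wild-type mice. None of these 5 passed, but all 5 lay below 0, with a median sex-adjusted change of -0.48. The part of cell makeup in the Rgs values was not tested. Arrays correlated at r = 0.990 to 0.996 within groups and 0.983 to 0.991 between them.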

How the data were processed

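Striatal RNA of 8 mice was measured on 1 array each. The deposited values are log2 signals, 1 per probe set, made by the authors with RMA and the affy package, per the submitters' processing notes. No version is given in the sources used here. RMA removes background, gives the arrays normalized together 1 distribution and summarises probes, so a shift shared by most genes cannot be seen and changes of dim genes are compressed. Whether all 8 arrays were normalized together is not given in the sources used; their medians lay between 4.95 and 4.98. Values ran from 2.60 to 14.5.

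The table held 45101 probe sets. Without its 64 controls, 45037 stayed, and the platform annotation pairs 34945 of them with 1 symbol, 932 with several and 9160 with none. Each of 18193 genes was read from its brightest probe set among those with 1 symbol, of which 18032 had their identifier in the reference gene table (GRCm38.p6). Rgs21, Rgs22 and some genes of the other lists were not analysed here.

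The test was limma 3.58.1 in R 4.3.3 (lmFit and eBayes) with genotype and recorded sex, and Benjamini-Hochberg adjustment over all genes. Every probe set was also tested, adjusted over 45037, and a fit with an interaction term was made. The fits were tested on simulated data. Mouse numbers name separate animals, and none is shared between the groups.

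The 10 genes, the gene lists and the rule for naming genes were chosen with earlier results of these data known. The rule names all 10 genes, every gene past the threshold in the other lists, up to 2 more of each with the highest mean, and the 5 genes most like Rgs4 and Rgs9. Promoter sequences are RefSeq's. Alternatives were no sex term, a trended and robust prior, probe sets averaged per gene or each tested alone, a floor at log2 of 32, dim genes left out, quantile normalization again, median centring, array weights, each mouse left out, mice 161 and 191 left out without sex in the fit, and an adjusted p under 0.01.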

Additional observations from a re-analysis of the deposited data

Results flagged for a closer look

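Of 92 groups of 4 mice examined, 3 held a mouse far from its group by Dixon's test at the 95% level. Chance alone gives about 1 such group in 20. For Rgs19, CHL2 mouse 191 had 8.23 where the other 3 CHL2 mice had 8.14 to 8.15, a gap of 0.85 of the group's range. For Rgs9, wild-type mouse 200 had 11.89 where the other 3 wild-type mice had 11.70 to 11.73, a gap of 0.86 of the range. Both gaps are small beside the distance between the genotypes. For Rgs12, wild-type mouse 161 had 7.63 where the other 3 wild-type mice had 6.97 to 7.08, a gap of 0.84 of the range. The change of Rgs12 was -0.56 without mouse 161, where mouse 191 alone stood against the male wild-type mice, and did not pass.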

How the results depend on the processing

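Of 200 changes of the 10 Rgs genes under 20 alternatives, 184 kept their direction and side of the threshold, 16 kept their direction but no longer passed (Rgs2 in 2, Rgs10 in 7, Rgs12 in 7) and 0 reversed. Changes of Rgs4, Rgs9, Rgs14, Rgs19 and Rgs20 passed under all 20. Rgs12 was -0.13 with mice 161 and 191 both left out and no sex term. That setting compares female CHL2 mice with male wild-type mice, so genotype and sex cannot be told apart in it. With sex in the fit, leaving out mouse 161 or mouse 191 left 1 mouse on one side of the contrast. Genes passing numbered 2258, against 1029 at an adjusted p under 0.01 and 702 (without mouse 191) to 2258 with 1 mouse left out (864 without 161). The Rgs genes passing as lower numbered 7, against 4 with the floor and 4 to 7 with 1 mouse left out. None of the 10 Rgs genes had a value under the floor in its brightest probe set, so their levels and changes were the same with it. Only limma's variance estimate, which draws on all genes, and the adjustment over all genes could differ with the floor. The part of each in the lost calls was not tested. Other Rgs genes passing as lower numbered 1, against 2 with the floor, where Rgs17 joined (adjusted p = 0.0471, limma). Pathway genes passing as higher numbered 2, against 4 without the sex term. Without that term they also numbered 4 without mouse 161 and 4 without mouse 191. They numbered 1 with the floor, 0 with the mean of probe sets and 0 at an adjusted p under 0.01. With 1 mouse left out they numbered 0 to 1. With every probe set tested, 0 passed as higher by their brightest probe set. Dimmer probe sets of Gnaq and Kcnj3 did pass as higher there, at 0.46 and 0.45 (adjusted p = 0.017 and 0.0436, limma). That of Kcnj3 lay under 5 in all 8 mice. Of 479 changes of other named genes, 437 kept their side, 29 no longer passed, 12 newly passed and 1 reversed: Gpr179, 0.07 with all mice, was -0.0037 without CHL2 mouse 153, in a range up to 0.12 with 1 mouse left out. No paired analysis was possible because no mouse number is shared between the groups. Probe sets near background, such as 4 of the 22, limit what can be seen of weak transcripts.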

Other observations

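In the gene order of GRCm38, Rgs4 lies next to Rgs5, Rgs2 next to Rgs13 and Rgs8 next to Rgs16, all on chromosome 1. The change was -1.36 for Rgs4 and -0.15 for Rgs5, -0.79 for Rgs2 and -0.03 for Rgs13, and -0.17 for Rgs8 and 0.04 for Rgs16. Rgs13 and Rgs16 lay under 5 in all 8 mice. The difference in change between neighbours was not tested. The median SD of the 10 Rgs genes was 0.13 among CHL2 and 0.10 among wild-type mice, beside 0.13 and 0.12 over all genes tested.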
